A study of Homo sapiens with 60 samples.

Results

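HepG2, a human liver cancer cell line that keeps many functions of hepatocytes, was treated for 24 h with a water extract of Citri Unshius Pericarpium, the dried peel of the mandarin Citrus unshiu. The comparison described here set 3 libraries at 500 ug/mL against 3 libraries at 20 ug/mL, chosen by the treatment label, 6 of the 60 libraries of the series. A further 3 libraries at 100 ug/mL served as the middle of the dose course. Vehicle cells (3 libraries, 24 h) carried 0.1% DMSO by their sample label and 2% DMSO by the description of the series, and the labels do not say whether the extract wells held DMSO. The titles place vehicle and extract libraries alike in batch B, but the vehicle libraries carry another title code than the extract libraries. Set, the first part of that code, and treatment therefore cannot be told apart in any comparison with vehicle. One other extract of the series, Cimicifugae Rhizoma (3 libraries at 500 and 3 at 20 ug/mL, 24 h), was used for a single test of difference. Nothing in the labels tells if the replicates came from cultures grown apart. The p-values therefore measure a spread between libraries that may be technical. That spread was estimated over 57 libraries in 19 groups of 3, other extracts of the series included.

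Plant extracts reach liver cells as mixtures of foreign compounds, and several sensors answer such mixtures. The aryl hydrocarbon receptor (AHR) is a ligand-activated transcription factor whose best known target is CYP1A1, a cytochrome P450 that oxidises polycyclic compounds. NRF2, which KEAP1 holds back in unstressed cells, drives enzymes of glutathione synthesis and quinone and aldehyde reduction. MTF1 senses zinc and drives the metallothioneins, small cysteine-rich proteins that bind zinc and copper, and ATF4 drives amino acid synthesis and transport when amino acids run short or kinases of the integrated stress response are active.

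Short stretches of promoter are shown first, because the leading genes belong to these sensors. Each stretch was read from the RefSeq promoter table (GRCh38.p14), runs 5′ to 3′ on the gene's own strand and has in capitals the letters that match the core motif searched in the 250 bases before the start, on both strands.
CYP1A1 (chr15:74725571-74725595, minus strand, AHR core GCGTG): agggaaggagGCGTGgccacacgta
GCLM (chr1:93909446-93909474, minus strand, NRF2 core TGACNNNGC): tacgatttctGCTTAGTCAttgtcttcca
TXNRD1 (chr12:104215670-104215698, plus strand, NRF2 core TGACNNNGC): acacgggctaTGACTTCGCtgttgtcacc
MT1X (chr16:56682310-56682433, plus strand, metal response core TGCNCNC): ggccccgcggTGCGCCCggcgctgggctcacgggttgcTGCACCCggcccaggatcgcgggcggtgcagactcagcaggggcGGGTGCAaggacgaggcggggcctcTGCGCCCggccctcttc
ASNS (chr7:97872458-97872486, minus strand, ATF4 core TGATGNAAN): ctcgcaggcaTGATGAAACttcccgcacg
In the GCLM stretch and at the third match of MT1X the motif lies on the opposite strand. Such matches are common: GCGTG stood in 31.9% of all 27305 promoters and TGCNCNC in 48.4%, TGACNNNGC in 11% and TGATGNAAN in 3.18%. Among the 100 genes called higher at 500 ug/mL that had a promoter in the table, 31% held GCGTG and 9% held TGACNNNGC, against 44.6% and 12.3% of the 11068 tested genes with a promoter. Among the 111 called lower with a promoter, 53.2% held TGCNCNC and 5.41% TGATGNAAN, against 56.2% and 1.45% of those tested. All stretches shown hold a match, which many members of the lists used below lack. Among tested members with a promoter, 5 of 25 on the NRF2 list and 2 of 20 on the ATF4 list held their core. On the AHR list 7 of 13 did, and on the metallothionein list 3 of 5. NQO1, AKR1C2 and GCLC held no NRF2 core. A match is a description of letters and not a binding site.

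The 9 libraries of the extract held 20405626 to 24908578 expected read pairs assigned to genes, and the vehicle libraries 21014795 to 22891342. Levels are given in CPM (counts scaled to a common library size), and differences as log2 ratios with their standard error (SE). Of 16093 genes tested, 265 (1.65%) differed between 500 and 20 ug/mL at an adjusted p under 0.05 (edgeR's quasi-likelihood test, Benjamini-Hochberg), 117 higher (0.727%) and 148 lower (0.92%). The libraries of these doses did not overlap for 17.2% of all genes tested, and the 3 doses stood in order without overlap for 0.497% upward and 0.516% downward. The differences were small: 7 of the 265 reached a log2 difference of 1 in either direction, 35 reached 0.5, and the median size was 0.261. Leaving out replicate 2 at 20 ug/mL left 164 calls, 66 higher and 98 lower, and the other 5 omissions left 179 to 203. ALB and AFP, the albumin genes of adult and fetal liver, stood at mean levels of 8283 and 3841 CPM at 20 ug/mL and 8238 and 3659 CPM at 500 ug/mL, so the cells carried the markers of a hepatocyte-type line. Among 16 marker genes of other cell types, 8 were tested and LYZ took most of their reads (a mean of 1120 CPM at 20 ug/mL); their summed level ran from 1159.5 to 1192.8 CPM at 20 ug/mL and from 1188 to 1239.7 CPM at 500 ug/mL. COL1A2, KDR, PTPRC, CD3E and HBB, which mark fibroblast, endothelial, blood and red cells, had no read in the 9 libraries. COL3A1, DCN and LUM had 3, 1 and 1. Other markers of fibroblast, endothelial and blood cells, COL1A1, PECAM1, VWF, CDH5, CD68 and CD14, passed the filter on low counts. PDGFRB, a receptor of mesenchymal cells, fell by 0.47 on the log2 scale (adjusted p = 0.00034), from 10.2, 11.4 and 12.04 CPM to 7.06, 8.58 and 8.61 CPM.

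CYP1A1 (ENSG00000140465, chromosome 15, 74719542 to 74725610, GRCh38) rose the most of the genes named here. Its level was 11.44, 11.98 and 11.03 CPM at 20 ug/mL, 15.2, 15.4 and 16.7 CPM at 100 ug/mL and 97.5, 97.1 and 106 CPM at 500 ug/mL. The 3 doses stood in order with no overlap, and the vehicle libraries, at 12.99, 10.995 and 13.92 CPM, overlapped those at 20 ug/mL. From 20 to 500 ug/mL the log2 difference was 3.13 ± 0.11 (SE, adjusted p = 3.53e-26). From 20 to 100 ug/mL it was 0.46 ± 0.13 and did not pass the test (adjusted p = 0.575), while from 100 to 500 ug/mL it was 2.67 (adjusted p = 1.96e-24). At 20 ug/mL the gene did not differ detectably from vehicle (log2 difference -0.14, adjusted p = 0.529), in the fit that keeps the GC trend described below.

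Of 15 tested genes in a list of AHR, its partners and targets, 3 (20%) were called higher, against 0.727% of all genes, and none lower. The median log2 difference was 0.0438 against 0.00291 over all genes tested. The other 2 were NQO1, a quinone reductase that NRF2 also drives, and ALDH3A1, an aldehyde dehydrogenase. ALDH3A1 was scarce, at 0.693, 0.485 and 0.350 CPM at 20 ug/mL and 0.959, 1.41 and 1.10 CPM at 500 ug/mL, with a log2 difference of 1.19 ± 0.28 (SE, adjusted p = 0.013). Its libraries did not overlap, but the call ended without replicate 2 at 500 ug/mL (adjusted p = 0.115), without replicate 2 or 3 at 20 ug/mL (0.07 and 0.153) and in a fit of the compared libraries alone (0.111), and DESeq2 gave it no adjusted p. CYP1A2, the liver's other main member of the family, reached at most 0.18 CPM and its log2 difference of 1.39 ± 0.77 did not pass the test (adjusted p = 0.528). CYP1B1 and UGT1A6 had too few reads to be tested (13 and 14 over the 9 libraries). The receptor AHR itself had a log2 difference of -0.11 ± 0.06 (adjusted p = 0.498), its repressor AHRR 0.03 and the AHR-induced feedback enzyme TIPARP 0.08, and none of them passed.

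The NRF2 list had more members called higher than any other list used here. Of 35 genes on the list 33 were tested. Of these, 18 (54.5%) were called higher, against 0.727% of all genes, and none lower. The list's median log2 difference was 0.215. AKR1B10, an aldo-keto reductase that clears reactive aldehydes, stood at 82.2, 84.8 and 84.4 CPM at 20 ug/mL, 88.0, 85.4 and 93.0 CPM at 100 ug/mL and 136, 139 and 134 CPM at 500 ug/mL. All 3 libraries at the highest dose lay well above the other 6, and the log2 difference from 20 to 500 ug/mL was 0.70 ± 0.05 (SE, adjusted p = 4.55e-15). GCLM, the modifier subunit of glutamate-cysteine ligase, at the head of the glutathione path, went from 51.7, 51.6 and 49.1 CPM through 55.4, 57.4 and 55.0 CPM to 81.1, 75.1 and 73.3 CPM. Its doses stood in order without overlap, with a log2 difference of 0.59 ± 0.04 (SE, adjusted p = 1.52e-13), and GCLC, the catalytic subunit, rose by 0.25 (adjusted p = 0.000121). NQO1 went from 579.8, 565 and 572 CPM through 609.7, 612 and 611 CPM to 809.6, 741 and 753 CPM, again in order, a log2 difference of 0.42 ± 0.05 (SE, adjusted p = 3.5e-08).

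The aldo-keto reductases AKR1C2 (log2 difference 0.59 ± 0.05 (SE), adjusted p = 1.15e-10) and AKR1C1 (0.43 ± 0.06, adjusted p = 1.32e-06), which reduce steroids and ketones, rose as well. AKR1C1, AKR1C2 and AKR1C3 are close copies on chromosome 10, so reads may be split among them and each value is uncertain. AKR1C2 libraries ran from 457 to 472 CPM at 20 ug/mL and from 684 to 707 CPM at 500 ug/mL, a wide gap. TXNRD1, which keeps thioredoxin reduced, rose from 216, 205 and 208 CPM to 267, 262 and 259 CPM, a log2 difference of 0.32 ± 0.03 (SE, adjusted p = 6.74e-09). SRXN1, which repairs oxidised peroxiredoxins, rose by 0.31 (adjusted p = 2.35e-06), HMOX1, which degrades heme, by 0.34 (adjusted p = 0.000853), and UGDH, which makes the sugar donor for glucuronidation, by 0.26 (adjusted p = 1.01e-07). ABCC2, an exporter of glutathione and glucuronide conjugates, ran from 349.9 to 361 CPM at 20 ug/mL and from 448 to 464 CPM at 500 ug/mL, a rise of 0.36 (adjusted p = 1.39e-05). The transcript of NRF2 itself, NFE2L2, showed a log2 difference of 0.00 ± 0.04, and SLC7A11, the cystine importer (-0.10), did not pass the test. Of the 18 calls, 14 held in every alternative analysis; those of AKR1C3, KEAP1, EPHX1 and PIR each ended without 1 of several libraries, with adjusted p up to 0.197, 0.323, 0.141 and 0.14.

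**Figure D1:**
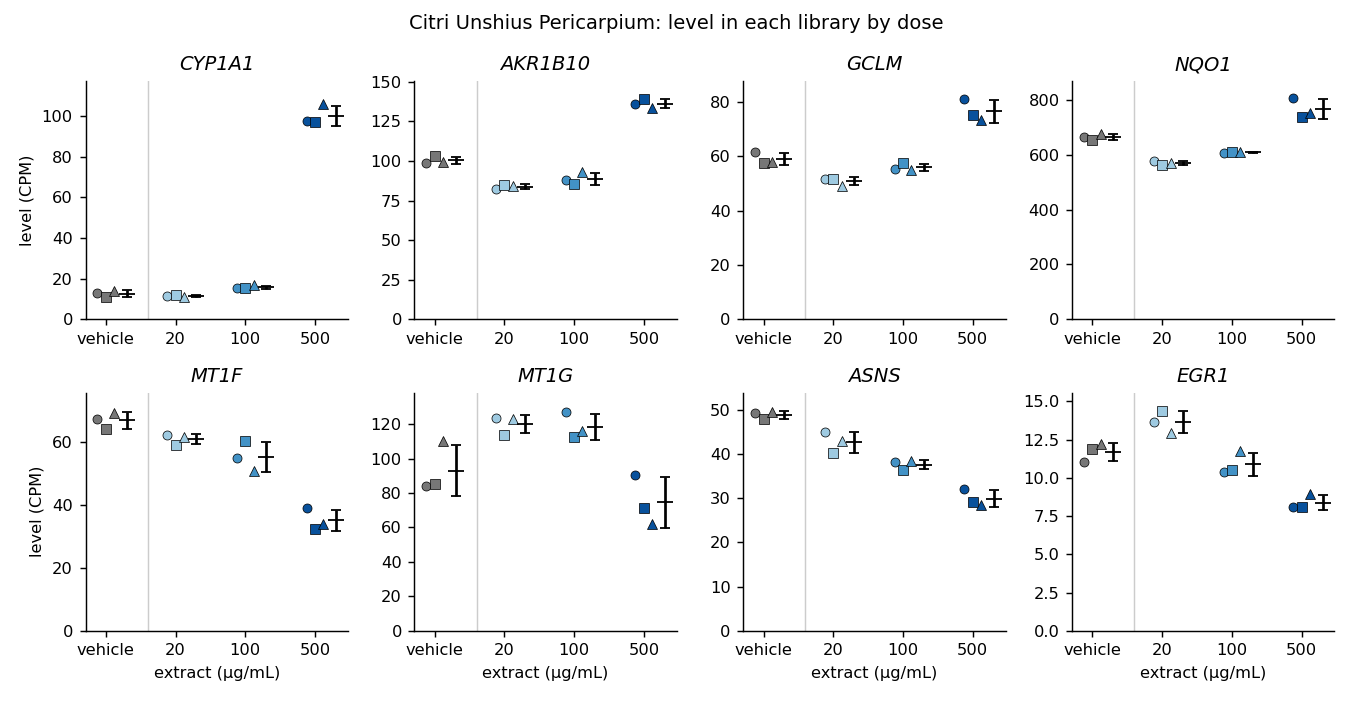
Level in CPM (vertical axes, from 0) of 8 genes in vehicle and at 20, 100 and 500 ug/mL; each symbol is 1 library (circle, square and triangle for replicates 1, 2 and 3) and bars are mean ± SD of 3. CYP1A1 stays at or under 16.7 CPM until 100 ug/mL and reaches 97.1 to 106 CPM at 500 ug/mL, AKR1B10 and GCLM rise mainly at the last step, MT1F falls, and ASNS and EGR1 stand lower at each dose.

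The 15 largest rises held further genes. AREG, a ligand of the EGF receptor, ran from 4.47 to 5.75 CPM at 20 ug/mL and from 7.49 to 8.07 CPM at 500 ug/mL, with a log2 difference of 0.58 ± 0.12 (SE, adjusted p = 0.00274). AQP3, a channel for water and glycerol, went from 4.36, 4.75 and 5.08 CPM to 6.76, 7.35 and 6.83 CPM (0.56 ± 0.09, adjusted p = 5.06e-05). HKDC1, a hexokinase, and PFKP, a phosphofructokinase, both of early glycolysis, rose by 0.42 (adjusted p = 1.32e-06) and 0.52 (adjusted p = 0.0122). The remaining names were OSGIN1 (0.43), a growth inhibitor that is 1 of the 18 called on the NRF2 list, PTGR1 (0.41), which reduces unsaturated aldehydes and prostaglandins, ACTA1 (0.40), skeletal actin, TNFSF10 (0.40), the death ligand TRAIL, and CREB3L3 (0.39), a liver transcription factor of the secretory pathway. Of these, the calls of AREG (without replicate 3 at 20 ug/mL, adjusted p = 0.0648), ACTA1 (without replicate 2 at 20 ug/mL, 0.0572), PFKP (without replicate 1 at 20 or 3 at 500 ug/mL, 0.0977 and 0.0559), TNFSF10 (without replicate 1 or 2 of either dose, 0.0634 to 0.148) and CREB3L3 (0.0535 to 0.265 in 5 settings) each depended on single libraries.

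Metallothioneins fell together at the highest dose. Of 10 tested genes of the metallothionein and zinc list, 7 (70%) were called lower, against 0.92% of all genes, and none higher. The list's median log2 difference was -0.589. MT1F (ENSG00000198417, chromosome 16, 56657694 to 56660698) stood at 62.4, 59.2 and 61.5 CPM at 20 ug/mL, 54.9, 60.2 and 50.7 CPM at 100 ug/mL and 38.9, 32.4 and 34.0 CPM at 500 ug/mL (log2 difference from 20 to 500 ug/mL -0.80 ± 0.09 (SE), adjusted p = 3.03e-08). The 500 ug/mL libraries lay below all others, vehicle included (67.2, 64.1 and 69.4 CPM), while those of the 2 lower doses overlapped. MT1G went from 123, 114 and 123 CPM through 127, 113 and 116 CPM to 90.6, 71.3 and 61.8 CPM (-0.69 ± 0.12, adjusted p = 0.000138). Here vehicle, at 83.8, 85.1 and 110.0 CPM, lay below the 20 ug/mL libraries, and MT1G was called higher than vehicle at 20 ug/mL (0.37, adjusted p = 0.0194) and lower at 500 ug/mL (-0.32, adjusted p = 0.0429). Both calls against vehicle come from the fit that keeps the GC trend described below.

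MT2A fell from 454, 413 and 437 CPM to 333, 258 and 251 CPM, a log2 difference of -0.63 ± 0.12 (SE, adjusted p = 0.00109). MT1M, with few reads, had 2.03, 1.65 and 1.88 CPM at 20 ug/mL and 1.05, 0.365 and 0.813 CPM at 500 ug/mL (-1.31 ± 0.25, adjusted p = 0.0011, and 0.0506 in a fit of the compared libraries alone). MT1E ran from 227 to 244 CPM at 20 ug/mL and from 134 to 183 CPM at 500 ug/mL, and MT1X from 59.0 to 59.8 CPM and from 34.1 to 49.3 CPM, so both separated the doses. SLC30A1, which exports zinc from the cell, also fell, from 115 to 118 CPM down to 103 to 104 CPM, but its call ended without single libraries (adjusted p up to 0.104). The other 3 tested did not pass: MT1A (-0.34, adjusted p = 0.333), the zinc importer SLC39A10 (0.18, 0.274) and the sensor MTF1 (0.09, 0.73). In the 500 ug/mL group replicate 1 was the highest library for all 7 metallothionein genes counted, against 5 of 7 at 20 ug/mL and 4 of 7 at 100 ug/mL. These genes are near-identical copies on chromosome 16, so reads may be split among them and single values are uncertain.

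Genes of amino acid shortage leaned lower. Of 25 tested genes on the ATF4 list, 4 (16%) were called lower, against 0.92% of all genes, and none higher. The median log2 difference was -0.134, and 22 of the 25 values were negative. At an unadjusted p under 0.05 of edgeR's quasi-likelihood test 13 were lower and 0 higher. Over all 16093 genes 1786 stood at such a p, in either direction. ASNS, asparagine synthetase (chromosome 7, 97852118 to 97872542), went from 44.9, 40.2 and 42.9 CPM at 20 ug/mL through 38.1, 36.4 and 38.3 CPM to 32.1, 29.2 and 28.4 CPM at 500 ug/mL. The doses stood in order with no overlap, and the log2 difference was -0.51 ± 0.06 (SE, adjusted p = 1.01e-07). Against vehicle ASNS was lower at both doses, by -0.20 at 20 ug/mL (adjusted p = 0.014) and -0.71 at 500 ug/mL (adjusted p = 6.03e-12), in the fit that keeps the GC trend. DDIT4, an inhibitor of mTORC1, fell by 0.46 (adjusted p = 0.00199) from 30.0, 42.3 and 37.4 CPM to 25.5, 26.7 and 27.5 CPM. Its call ended without replicate 2 at 20 ug/mL, the highest library (-0.35, adjusted p = 0.0847), and those of PCK2 and TRIB3 also ended without single libraries (adjusted p up to 0.241 and 0.204).

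EGR1, a transcription factor that growth factor signalling turns on within minutes, stood at 13.6, 14.4 and 13.0 CPM at 20 ug/mL, 10.4, 10.5 and 11.7 CPM at 100 ug/mL and 8.11, 8.08 and 8.94 CPM at 500 ug/mL. Each dose lay below the one before it without overlap (log2 difference from 20 to 500 ug/mL -0.70 ± 0.09 (SE), adjusted p = 1.08e-06). Of 25 tested immediate early genes 3 (12%) were called lower, against 0.92% of all genes, and none higher, with a median of -0.117. They were EGR1, IER3 (-0.28), a stress-induced survival gene, and DUSP6 (-0.23), a phosphatase that shuts off ERK. Of 16 targets of TGF-beta and YAP, 6 (37.5%) were called lower and none higher (median -0.121). Among them were CCN2, the connective tissue growth factor, from 167, 147 and 154 CPM to 123, 121 and 115 CPM (-0.38), ANKRD1 (-0.31), AMOTL2 (-0.27), THBS1 (-0.25) and TNS4 (-0.46). ACTA2, smooth muscle actin, was the sixth, at -0.17, and its call ended without single libraries (adjusted p up to 0.297). Of 12 tested NF-kB and cytokine genes 4 (33.3%) were called lower and none higher (median -0.15). These were CCL20, a chemokine (-0.48, adjusted p = 0.000611), TNFAIP3, a feedback inhibitor of NF-kB (-0.29), CFB, complement factor B (-0.29), and ICAM1, an adhesion molecule (-0.19). The call of ICAM1 ended without replicate 1 at 500 ug/mL (adjusted p = 0.106). Other members of this list had too few reads to be tested, at 0 to 12 over the 9 libraries. These were CXCL1, CXCL2, CXCL3, CXCL5, CCL2, LCN2, SAA1 and SAA2, so the share called speaks only for the members expressed here.

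Secreted proteins of the acute phase were called lower at 500 ug/mL in 8 of 15 tested members (53.3%, against 0.92% of all genes). None was called higher, and the median was -0.201. SERPINA3, antichymotrypsin, went from 46.2, 42.5 and 40.8 CPM to 34.8, 31.2 and 31.0 CPM (-0.42), and HPX, which carries heme in plasma, from 13.9, 13.4 and 13.1 CPM to 10.6, 9.68 and 9.67 CPM (-0.43). Both separated the doses fully. The 3 fibrinogen chains fell by less, FGB by 0.24, FGA by 0.20 and FGG by 0.20, and A2M, a protease inhibitor, fell by 0.20, ITIH3 by 0.24 and HP, haptoglobin, by 0.17. The calls of FGG and HP ended without single libraries (adjusted p up to 0.236 and 0.212). KNG1, kininogen, another secreted liver protein, fell from 8.22, 7.18 and 6.26 CPM to 4.97, 4.38 and 4.51 CPM (-0.64 ± 0.09, adjusted p = 7.3e-06). Among 25 genes of hepatocyte identity and secretion 3 were called lower and none higher (FOXA3, APOH and TF, median -0.0835), and each of these calls ended without single libraries (adjusted p up to 0.0897, 0.227 and 0.337). In bulk RNA fewer cells of a kind and less RNA per cell cannot be told apart.

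Of the other large falls, SLC13A3, which carries succinate and other dicarboxylates, went from 57.004, 63.4 and 61.9 CPM to 41.6, 40.4 and 40.0 CPM (-0.58 ± 0.05, adjusted p = 1.15e-10). SLC6A14, an importer of neutral and basic amino acids, fell from 35.9, 38.9 and 41.9 CPM through 30.8, 30.4 and 31.6 CPM to 25.9, 28.6 and 25.8 CPM (-0.54 ± 0.06, adjusted p = 1.01e-07), and its 3 doses stood in order. KCNJ10, a potassium channel (-0.57), ARSI, an arylsulfatase (-0.60), and HOXD1, a homeobox factor (-0.55), fell with adjusted p of 5.52e-07, 2.77e-07 and 1.16e-05. P2RY8, a G protein-coupled receptor (-0.52), and SRARP (-0.53), a regulator of steroid receptors, were called too, and their calls ended without replicate 2 at 20 or 3 at 500 ug/mL (adjusted p = 0.0637 and 0.11) and without replicate 1 at 500 or 20 ug/mL (0.071 and 0.0626).

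Of 25 cholesterol synthesis genes, 5 were called lower (20%, against 0.92% of all genes) and none higher, with a median of -0.138; 18 were lower at an unadjusted p under 0.05, and DESeq2 called 8 lower. HMGCS1, which makes the precursor of the sterol path, went from 440.3, 412 and 411 CPM to 373, 336 and 335 CPM (-0.27, adjusted p = 0.00219), and the calls of the other 4, FDPS, FDFT1, HSD17B7 and STARD4, ended without single libraries (adjusted p of 0.159 to 0.232). Of 13 fatty acid synthesis genes 2 were called lower (FADS2 and ACSS2, median -0.0911), both with adjusted p up to 0.203 and 0.161 without 1 library. Of 18 genes driven by PPARA 2 were called higher (11.1%, against 0.727% of all genes) and none lower, at a median of -0.0161. They were CPT1A, which admits fatty acids to mitochondria (0.25, adjusted p = 0.00192), and CREB3L3, whose call did not hold in every setting. Of 11 bile acid genes ABCC2 rose and NR0B2, the repressor SHP (-0.23), and SLC51B, a bile acid exporter (-0.48), fell, the last 2 not in every omission of a library (adjusted p up to 0.235 and 0.133).

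Drug-metabolising genes other than those above showed few calls. The shares to set beside the counts here are 0.727% of all genes called higher and 0.92% called lower. Of 11 tested genes of the receptors PXR and CAR, ABCB1, the exporter P-glycoprotein, was called higher (median of the list 0.152), with an adjusted p up to 0.124 without 1 library. Of 19 conjugation enzymes MGST1, a microsomal glutathione transferase, rose from 182, 173 and 169.8 CPM to 234, 212 and 209 CPM (0.32). Of 20 glycolysis genes 3 were called higher (PFKP, GPI and ALDOA) and 1 lower (SLC2A1, the glucose importer), at a median of 0.0661, and each of the 4 calls ended without some library. Of 14 WNT genes LGR5 (-0.23) and NKD1 (-0.16, adjusted p up to 0.213 without 1 library) were called lower, of 19 genes of the unfolded protein response XBP1 (-0.18, up to 0.164), and of 19 interferon genes UBD, a ubiquitin-like protein. Among 15 genes of the mitochondrial genome MT-RNR1, the small ribosomal RNA, rose from 8005, 6952 and 7964 CPM to 9538, 10477 and 9127 CPM (0.35, adjusted p = 0.00014). The median of those 15 was -0.0187 and their summed level ran from 106380 to 116950 CPM at 20 ug/mL and from 111070 to 116350 CPM at 500 ug/mL, so the groups overlapped.

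No member was called, with edgeR's quasi-likelihood test, among 25 DNA replication genes, 25 mitosis genes, 18 p53 targets, 11 insulin-response genes and 11 genes used as signs of RNA quality. Over all genes tested 1.65% were called, so the absence of calls in lists this short says little about them. At an unadjusted p under 0.05 these lists held 6 higher, 1 higher, 1 higher and 1 lower, 2 higher and 1 lower, and 1 lower, and DESeq2 called 0 in each. Over all 16093 genes 1786 stood at such a p, in either direction. Of the 25 DNA replication genes 19 had a positive log2 difference and 6 a negative one. Their medians lay between -0.0578 and 0.0437.

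**Figure D2:**
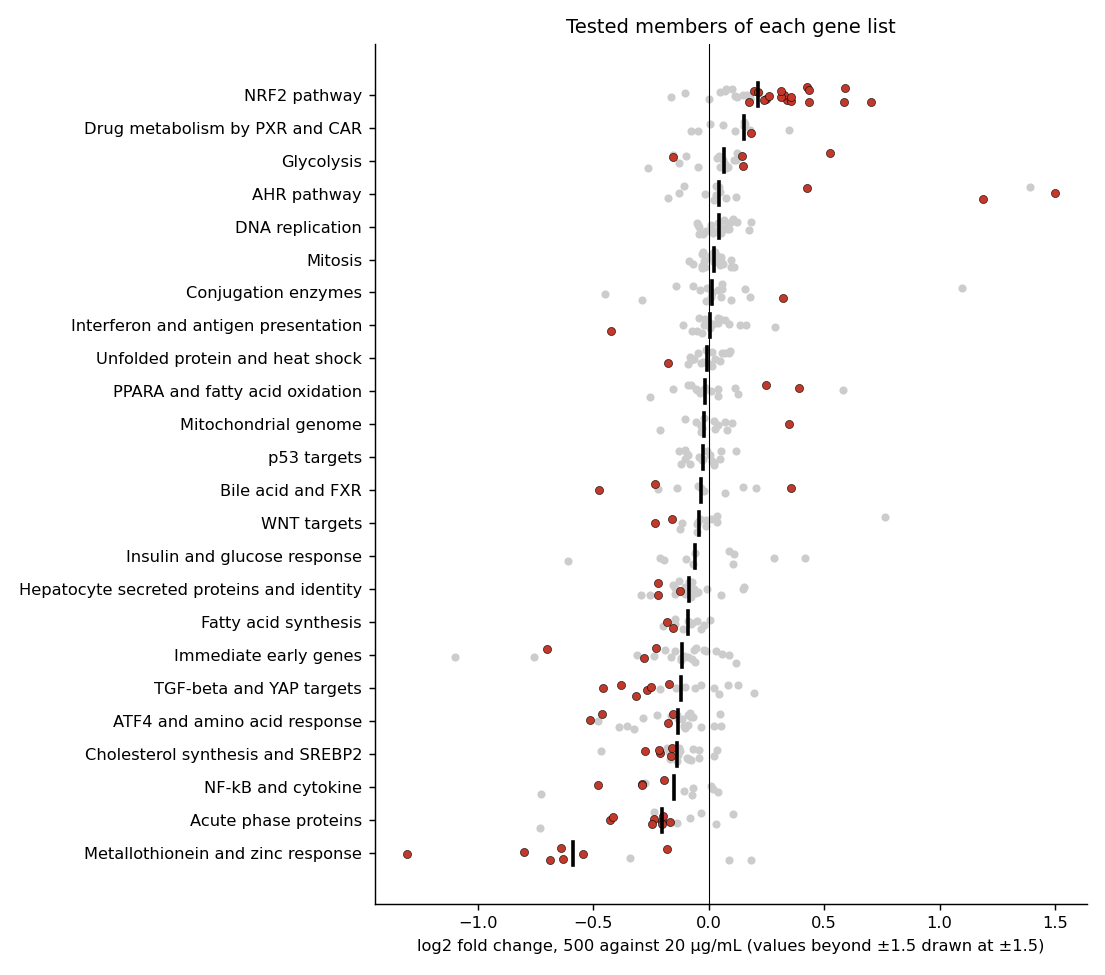
Log2 difference from 20 to 500 ug/mL (horizontal axis, clipped at 1.5 either way) for the tested members of 24 gene lists; each dot is 1 gene, red where called, and the black bar is the list's median. The NRF2 list has its median at 0.215 with 18 red dots to the right, the metallothionein list at -0.589 with 7 to the left, and most other medians lie close to 0.

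Most of the change lay in the upper step of the dose course. From 20 to 100 ug/mL 4 genes were called (0.0249% of those tested), all lower, with 600 genes at an unadjusted p under 0.05 and 11 calls by DESeq2; with no filter on low counts 58 were called, 30 higher and 28 lower. From 100 to 500 ug/mL 98 were called (0.609%), 57 higher (0.354%) and 41 lower (0.255%). Of the 117 genes higher at 500 than at 20 ug/mL, 0 passed the test at the lower step with edgeR and 44 at the upper, and their median log2 differences were 0.0651 and 0.194. Of the 148 lower genes 2 passed at the lower step and 38 at the upper, with medians of -0.0989 and -0.171. The mean at 100 ug/mL lay between the other means for 108 of the 117 and 140 of the 148. The same 20 and 500 ug/mL libraries chose these genes, so these counts are descriptions. The NRF2 list had 0 calls at the lower step with edgeR (3 higher at an unadjusted p under 0.05, 0 by DESeq2) and 13 higher at the upper, and the metallothionein list 0 (0 unadjusted, 0 by DESeq2) and 6 lower.

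**Figure D3:**
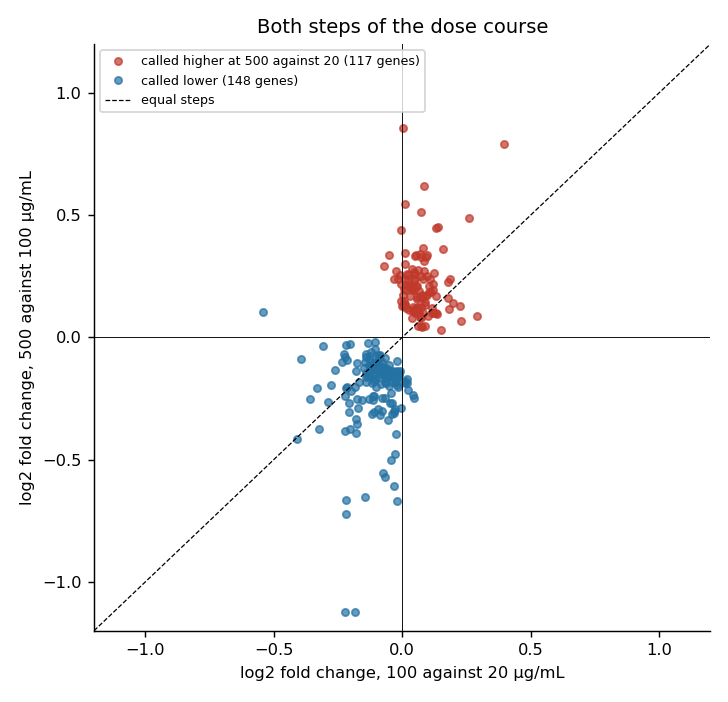
Log2 difference from 20 to 100 ug/mL (horizontal) against that from 100 to 500 ug/mL (vertical) for the 117 genes called higher (one colour) and the 148 called lower (another) between 20 and 500 ug/mL, axes limited to 1.2 either way, which leaves out CYP1A1 (0.46 and 2.67), SPDYE2, LRRC25 and 1 gene without a symbol; the dashed line marks equal steps. The higher genes lie mostly above the line, with median steps of 0.0651 and 0.194.

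The 4 genes called at the lower step were led by BHLHE40. This gene, a transcriptional repressor of the circadian clock and of hypoxia (chromosome 3, 4979116 to 4985323), went from 27.3, 31.3 and 26.4 CPM at 20 ug/mL to 18.4, 20.2 and 19.8 CPM at 100 ug/mL and stood at 20.6, 23.3 and 18.97 CPM at 500 ug/mL. The 20 ug/mL libraries lay above the other 6, and vehicle, at 15.3, 22.7 and 22.5 CPM, lay below them too. The log2 difference from 20 to 100 ug/mL was -0.54 ± 0.09 (SE, adjusted p = 0.0109). SLC6A14 (-0.33, adjusted p = 0.027) and BNIP3L, a mitophagy receptor (-0.33, adjusted p = 0.0441), were also among them. The number of calls was 0 without replicate 1 or 2 at 100 ug/mL or replicate 2 at 20 ug/mL, 2 and 1 without replicate 3 at 100 and at 20 ug/mL, and 9 without replicate 1 at 20 ug/mL, so none of the 4 calls held in every omission.

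The shape of the dose course was tested as the departure of the 100 ug/mL level from the midpoint of the outer doses, doubled, on the log2 scale; 8 genes passed (0.0497%), all below the midpoint, while with no filter on low counts 87 passed, 47 above and 40 below. For CYP1A1 (-2.21 ± 0.21, adjusted p = 1.69e-09) and AKR1B10 (-0.53, adjusted p = 0.000672) the mean at 100 ug/mL stood above that at 20 ug/mL, so they showed a larger upper step and no dip. IGFBP1, a secreted binder of insulin-like growth factors, stood at 40.5, 59.3 and 46.5 CPM at 20 ug/mL, 35.7, 37.2 and 37.1 CPM at 100 ug/mL and 48.5, 57.3 and 51.8 CPM at 500 ug/mL (-0.93 ± 0.18, adjusted p = 0.0175). All its 100 ug/mL libraries lay below the other 6, which overlapped. TMCC1, a membrane protein of the endoplasmic reticulum (-0.81, adjusted p = 0.0156), NDRG1, a stress-responsive growth regulator (-0.59, adjusted p = 0.0426), and NEDD9, a focal adhesion scaffold (-0.56, adjusted p = 0.0046), were below the midpoint too.

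Replicate 2 was the highest of 3 libraries at 20 ug/mL, and again at 500 ug/mL, for 6 of 6 genes compared (IGFBP1, NDRG1, BHLHE40, TMCC1, NEDD9 and BNIP3L), and at 100 ug/mL for 3 of 6. Several of them, BHLHE40, NDRG1 and BNIP3L among them, are known to be induced by low oxygen; the part of replicate 2 in the lower level at 100 ug/mL was not tested beyond leaving libraries out. Between 1 and 10 genes passed this test when 1 library was left out. CYP1A1 passed in every setting; IGFBP1, NDRG1, TMCC1 and NEDD9 did not, with adjusted p up to 0.365, 0.581, 0.312 and 0.141.

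**Figure D4:**
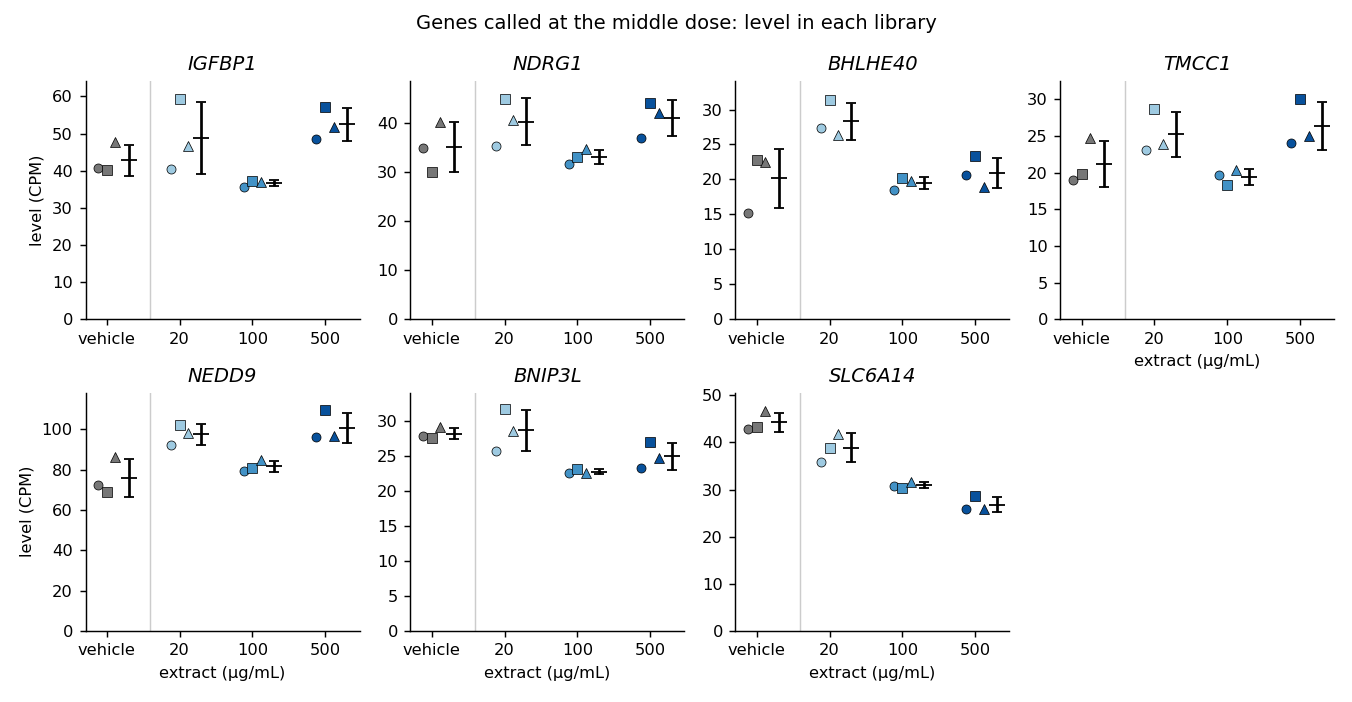
Level in CPM (vertical axes) of 7 genes named for the lower step or the middle dose, in vehicle and at 20, 100 and 500 ug/mL; symbols mark replicates 1, 2 and 3 and bars mean ± SD of 3. IGFBP1 and NDRG1 are lowest at 100 ug/mL and the square of replicate 2 is the highest point at 20 and 500 ug/mL, while SLC6A14 stands lower at each dose.

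Vehicle cells gave the background for both ends of the course. At 500 ug/mL 3621 genes (22.5%) were called against vehicle, 2047 higher (12.7%) and 1574 lower (9.78%), and at 20 ug/mL 3108 (19.3%), 1764 higher (11%) and 1344 lower (8.35%). These counts moved with the base composition of transcripts: the slope of level on GC content was -0.167 to -0.141 log2 units per 10 points in the vehicle libraries and -0.0538 to 0.0131 in the extract libraries, and with the trend removed 1024 genes were called at 20 ug/mL, 412 higher and 612 lower, and 2042 at 500 ug/mL, 996 higher and 1046 lower. Without vehicle replicate 2 the count at 20 ug/mL was 2007, and without replicates 2 and 3 at 20 ug/mL it was 1848 and 1932. AKR1B10 was lower than vehicle at 20 ug/mL (-0.26, adjusted p = 0.000224) and higher at 500 ug/mL (0.44, adjusted p = 4.25e-09), as were GCLM (-0.22 and 0.37) and NQO1 (-0.22 and 0.20, adjusted p = 0.00119 and 0.00151). On the NRF2 list 5 genes were higher and 11 lower than vehicle at 20 ug/mL (median -0.0386), and 23 were higher and 0 lower at 500 ug/mL (median 0.183). Both comparisons share the vehicle libraries. These gene and list values come from the fit that keeps the GC trend, and none is given here with the trend removed. Of the 3108 calls at 20 ug/mL 723 remained, in the same direction, with the trend removed. Of the 3621 at 500 ug/mL 1445 remained.

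The dose effect was tested against that of the Cimicifugae Rhizoma extract, 500 against 20 ug/mL, as a difference of log2 differences; 4535 genes (28.2%) differed. Of the 117 genes that rose with the peel extract 72 differed, 28 with a positive difference (peel minus Cimicifugae) and 44 with a negative one. Of the 148 that fell 110 differed, 72 with a negative difference and 38 with a positive one. These counts go by the sign of the difference alone. The 72 include genes that fell with the peel and rose with Cimicifugae, EGR1 and DUSP6 among them. CYP1A1 rose by 4.85 with Cimicifugae, from a mean of 19.8 ± 1.70 CPM to 569.8 ± 11.02 CPM (SD, n = 3), so the peel's rise was smaller by 1.72 ± 0.16 on the log2 scale. EGR1 rose by 1.63 with Cimicifugae and fell with the peel, a difference of -2.33 ± 0.12 (adjusted p = 7.4e-21), and DUSP6 (+1.18 with Cimicifugae) and ASNS (+0.52) likewise had opposite signs. MT1F fell by 3.18 and MT1G by 3.62 with Cimicifugae, far more than with the peel, whereas MT2A fell by 0.41 there and did not differ detectably between the extracts (-0.22, adjusted p = 0.388). AKR1C2 went the other way and rose by more with the peel, 0.59 against 0.12 (difference 0.47, adjusted p = 3.65e-06).

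**Figure D5:**
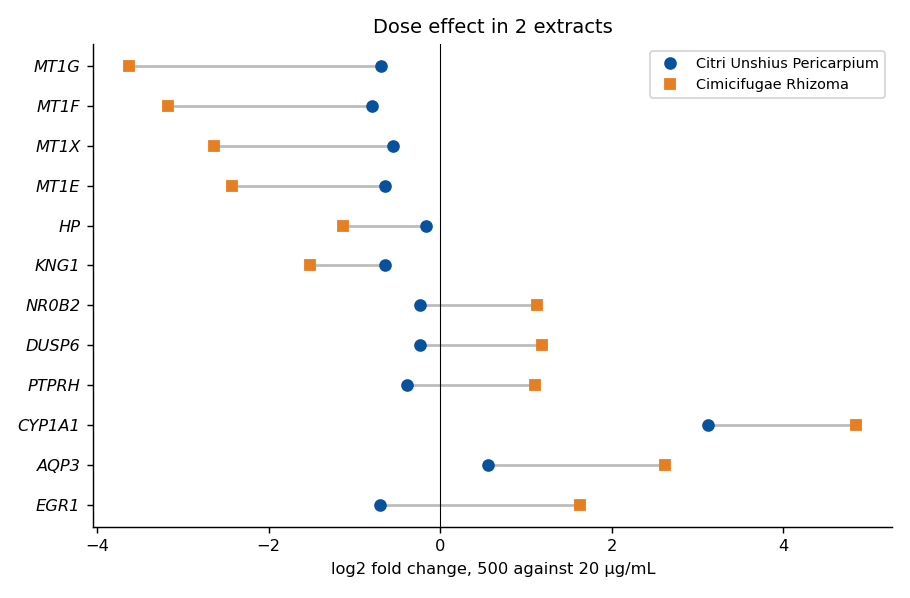
Log2 difference from 20 to 500 ug/mL (horizontal axis) of 12 genes with the peel extract (circles) and the Cimicifugae Rhizoma extract (squares), with a grey line joining each pair. The 4 MT1 genes plotted fall with both and further with Cimicifugae, and EGR1 and DUSP6 lie on opposite sides of 0.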

How the data were processed

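Messenger RNA libraries were made from total RNA with a directional kit and sequenced as read pairs, per the labels' protocols. The authors deposited expected counts per gene, made with RSEM 1.3.3 after FastQC 0.11.9, Trim Galore 0.6.5 and STAR 2.7.3a on GRCh38, per the submitters' processing notes; the annotation release is not given in the sources used here. The deposited tables also hold 207 columns of no sample of the series, which were not used. Expected counts were rounded and fitted with edgeR 4.0.16 (R 4.3.3; TMM, filterByExpr, quasi-likelihood) over 57 libraries in 19 groups of 3, with Benjamini-Hochberg adjustment over 16093 genes at a threshold of 0.05 and a common biological coefficient of variation of 4.86%. CPM use TMM-scaled library sizes. Types and coordinates come from GENCODE 29. Symbols come from a separate list of gene names, or from GENCODE 29 where that list held none. Totals ran from 17598646 to 30451640 per library, and no replicate pair agreed within sampling noise.

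The groups follow the treatment label. Genes named by rank are protein coding, at a mean of 5 CPM or more and called. They also had no overlap between libraries, a condition that was not set for the middle dose. Named by rank were the 15 largest rises and 15 largest falls, and up to 5 each way for the lower step and the middle dose. For the comparison of extracts 6 at each end were named. Members of 26 gene lists were added. CPT1A, GPI, ALDOA and SLC2A1 and other single calls of a list are named because the list had 5 or fewer. The comparison, its genes and its lists were chosen with earlier results of these data known. Some genes that meet these rules are not reported here. No set test was run. Alternatives were median-ratio size factors, other filters on low counts, DESeq2 1.42.0, a replicate block, a fit of the compared libraries, removal of the GC trend and leaving out each library. The same steps were tested on simulated data for 500 against 20 ug/mL with 16093 genes. Of 50 genes each, 60% were called at 1.3-fold, 84% at 1.5-fold, 96% at 2-fold and 100% at 4-fold, and 0.044% of 15893 unchanged genes. The simulated counts were drawn independently with the spread of the fit itself, and the changed genes were not taken from the scarcest. No replicate effect or GC trend was put in, so these shares do not cover such effects in the real libraries.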

Additional observations from a re-analysis of the deposited data

Results flagged for a closer look

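The dose effect of the peel extract (500 against 20 ug/mL) differed from that of the Cimicifugae Rhizoma extract for 4535 genes, by the test of the difference itself (edgeR's quasi-likelihood test). The values below are the peel's log2 difference minus that of Cimicifugae, for the genes with the largest differences among those the peel changed. They were positive for MT1G (2.93, adjusted p = 2.02e-16), MT1F (2.38), MT1X (2.09) and MT1E (1.78), metallothioneins that fell with both extracts and further with Cimicifugae, and for the plasma proteins HP (0.962) and KNG1 (0.88), which also fell with both. They were negative for EGR1 (-2.33), DUSP6 (-1.41), PTPRH (-1.48), a receptor phosphatase, and NR0B2 (-1.37), which fell with the peel and rose with Cimicifugae. They were negative too for AQP3 (-2.06) and CYP1A1 (-1.72), which rose with both and further with Cimicifugae.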

How the results depend on the processing

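Of 92 genes refitted under the alternatives for 500 against 20 ug/mL, none changed direction and 54 were called in every alternative. For 500 against 20 ug/mL the 265 calls became 422 with the GC trend removed, 462 with the trend removed and the replicate block, 172 in the fit of the compared libraries and 164 to 203 without 1 library. For 100 against 20 the 4 calls became 58 with no filter, 7 with the GC trend removed (7 with the block as well), 11 with DESeq2 and 0 to 9 without 1 library. For 500 against 100 the 98 became 179 with no filter, 180 with the GC trend removed and the block, and 49 to 68 without 1 library (68 without replicate 1 at 500 ug/mL). The 8 genes below the midpoint became 87 with no filter, 13 with the GC trend removed and the block, 14 with DESeq2, 5 in the fit of the compared libraries and 1 to 10 without 1 library. Against vehicle, 3621 at 500 ug/mL became 2042 and, with the block, 2248 with the GC trend removed and 2355 to 3437 without 1 library, and 3108 at 20 ug/mL became 1024, 1218 and 1848 to 2892. The 4535 of the comparison of extracts stayed within 4084 to 5133. The cause of these shifts was not tested. Replicate numbers paired the libraries in part. Across genes, deviations of same-numbered libraries at 500 and 20 ug/mL correlated at 0.404 for replicate 1 and 0.282 for replicate 3, but at -0.093 for replicate 2. The main fit held no term for the replicate number. With the replicate block alone the counts were, in the order above, 301, 4, 109, 10, 3833, 3275 and 4690. At this depth and with 3 libraries a dose, 60% of simulated 1.3-fold changes were called; smaller changes were not simulated.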

Other observations

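Gene families picked after the values were seen, and so given without a test, are described here for 500 against 20 ug/mL. Of 22 tested serpins, mostly secreted protease inhibitors and hormone carriers of liver, 8 were called lower and none higher, with a median log2 difference of -0.121. They were SERPINA4 (-0.42), SERPINA3 (-0.42), SERPINA7 (-0.38), the thyroxine-binding globulin, SERPINA11 (-0.33), SERPINA5 (-0.22), SERPIND1 (-0.22), heparin cofactor II, SERPINA6 (-0.21), the cortisol-binding globulin, and SERPINF1 (-0.21). Of 21 complement genes 4 were called lower and none higher, with a median of -0.123: C4BPA (-0.41), CFB (-0.29), C5 (-0.26) and CFI (-0.20).

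Of 14 claudins, the strands of tight junctions, CLDN6 (0.32) and CLDN4 (0.31) were called higher, and the median was 0.251. Of 31 ABC transporters 4 were called higher and none lower, ABCB1, ABCB6, ABCG2 and ABCC2, with a median of 0.059. Of 241 solute carriers 3 were called higher and 7 lower, and the median was 0.00534. Over all genes tested 0.727% were called higher and 0.92% lower.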
